A study of Mus musculus with 17 samples.

Results

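The genes described here are 9 that macrophages use to store, move and export lipid, Plin2, Abca1, Abcg1, Apoe, Lpl, Fabp5, Pparg, Lipa and Npc2. They were taken by gene symbol from a table of 22859 genes, in which all 9 were present, and all 9 were among the 15272 genes that passed the filter on low counts. The libraries are bulk RNA-seq of macrophages sorted from digested knee synovium, the membrane that lines the joint. All mice carried a knockout of Fcgr2b, which encodes the inhibitory Fc receptor for IgG, so every value below, controls included, belongs to mice labelled as lacking this receptor. Adult mice were controls or had been given immune complexes (IC), antibodies bound to their antigen, intravenously 8 h before the tissue was taken. What control mice were given is not stated in the labels. The subsets were LYVE1+CX3CR1+ (labelled Lyve1), MHCII+CD11c− (labelled IAIE) and MHCII+CD11c+ macrophages (labelled CD11c), with 3 libraries of control mice (labelled Healthy) and 3 of IC-treated mice each, except MHCII+CD11c+ macrophages after IC, with 2. The labels do not say whether each library came from a separate mouse, so p-values measure only the spread between these libraries.

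Macrophages that engulf cells and lipoproteins free cholesterol and fatty acids in the lysosome, where LIPA, the lysosomal acid lipase, hydrolyses cholesteryl esters and NPC2 hands free cholesterol to the lysosomal membrane. Surplus lipid is esterified and kept in droplets coated by perilipin 2, the product of Plin2, or is exported. ABCA1 loads cholesterol onto lipid-poor apolipoproteins, ABCG1 moves it towards high-density lipoprotein, and apolipoprotein E, which macrophages secrete, is an acceptor. The oxysterol receptors LXRα and LXRβ activate Abca1, Abcg1 and Apoe, and the fatty acid receptor PPARγ, encoded by Pparg, activates many genes of lipid uptake and storage. Lipoprotein lipase (Lpl) cuts fatty acids from circulating triglycerides, and FABP5 carries fatty acids inside the cell.

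Libraries held 2301913 to 7248939 counts. LYVE1+CX3CR1+ libraries after IC were among the shallower ones and had 11547 to 14068 genes with at least 1 count, against 13888 to 19926 in the other libraries. In controls the marker levels followed the labels of the subsets, but general macrophage markers were not even over them. The CD11c gene Itgax had 348 ± 80.4 CPM in MHCII+CD11c+ controls and 1.43 ± 0.84 CPM in LYVE1+CX3CR1+ controls (mean ± SD, n = 3 each; CPM, counts scaled to one common library size after TMM normalisation). Summed over 8 general macrophage markers, MHCII+CD11c+ controls had 8071 to 9841 CPM. MHCII+CD11c− controls had 12028 to 12397 CPM and LYVE1+CX3CR1+ controls 11485 to 13845 CPM. The median log2 fold change of these 8 markers was −1.53 for MHCII+CD11c+ against MHCII+CD11c− controls. Its part in the subset differences below was not tested. Replicate 2 of both MHCII+ control groups stood apart from its companions. The summed CPM of 6 LYVE1-side markers was 632 in replicate 2 of MHCII+CD11c+ controls and 100.2 and 64.3 in replicates 1 and 3, and it was 1903 in replicate 2 of MHCII+CD11c− controls and 1021 and 1146 in the others. Results that rest on these libraries are therefore also given without them, an analysis added after the data had been seen.

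Promoter sequences were available for 6 of the 9 genes, Plin2, Abca1, Apoe, Pparg, Lipa and Npc2, and not for Abcg1, Lpl and Fabp5. Those of Plin2, the droplet gene that IC changed in both MHCII+ subsets, and of Abca1, the transporter that parted the subsets most clearly, are shown because both genes are known targets of nuclear receptors. The lines give the 250 bases before the RefSeq transcript start (GRCm38.p6, minus strand, written 5′ to 3′), at chr4:86670060-86670309 for Plin2 and chr4:53159896-53160145 for Abca1. Capitals mark the best repeats of the nuclear receptor element AGGTCA, a repeat with a spacer of 1 base (DR1, with up to 2 mismatches in 12 letters) in Plin2 and with a spacer of 4 bases (DR4, with up to 3 mismatches in 12 letters) in Abca1.
Plin2: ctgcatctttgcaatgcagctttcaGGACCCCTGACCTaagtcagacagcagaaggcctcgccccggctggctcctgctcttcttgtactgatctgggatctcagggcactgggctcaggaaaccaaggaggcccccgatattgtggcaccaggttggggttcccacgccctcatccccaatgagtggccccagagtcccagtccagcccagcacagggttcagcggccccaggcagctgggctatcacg
Abca1: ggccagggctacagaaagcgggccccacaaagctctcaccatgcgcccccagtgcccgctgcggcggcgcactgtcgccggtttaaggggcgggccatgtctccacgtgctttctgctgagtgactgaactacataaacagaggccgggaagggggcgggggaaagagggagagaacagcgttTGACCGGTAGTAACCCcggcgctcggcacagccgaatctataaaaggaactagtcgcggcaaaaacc

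Both repeats lie on the opposite strand. The Plin2 repeat had 2 mismatches and spanned bases −225 to −213, and its bases −218 to −213 were an exact AGGTCA. The Abca1 repeat had 3 mismatches and spanned bases −67 to −52. Over windows of 300 bases (250 before and 50 after the start), a DR1 of this quality was present in 3.86% and a DR4 in 21.9% of 32851 mouse promoters, and an exact AGGTCA in 16.3%. Both windows also held CACGTG, found in 7.15% of promoters, at bases −147 to −142 of Abca1 and across the start, at bases −4 to 2, of Plin2. Both held GGGCGG, found in 35.7% of promoters. All motifs were searched on both strands, and a match of letters describes the sequence and is not a measured binding site.

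Plin2 was the member that IC changed in both MHCII+ subsets. Plin2 (minus strand of chromosome 4, 86648386 to 86670060, GRCm38) had 187, 262 and 198 CPM in MHCII+CD11c− controls and 369, 460.0 and 403 CPM after IC (replicates 1 to 3). In MHCII+CD11c+ macrophages it had 163, 223 and 145 CPM in controls and 411 and 421 CPM after IC. In both subsets every IC library lay above every control library. In LYVE1+CX3CR1+ macrophages the libraries overlapped, with 265, 212 and 279 CPM in controls and 307, 168 and 339 CPM after IC.

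Relative to controls, mean Plin2 was 1.91-fold higher after IC in MHCII+CD11c− and 2.34-fold higher in MHCII+CD11c+ macrophages. The fitted log2 fold changes were 0.93 ± 0.22 (± SE, adjusted p = 0.0489) and 1.23 ± 0.24 (adjusted p = 0.029). Adjusted p-values of genes are from edgeR's quasi-likelihood test, adjusted by Benjamini-Hochberg over all 15272 genes, and a gene is called changed under 0.05. In LYVE1+CX3CR1+ macrophages the log2 fold change was 0.10 ± 0.22 (adjusted p = 0.903). The difference of the IC responses was not called, at −0.83 ± 0.31 (adjusted p = 0.545) for LYVE1+CX3CR1+ against MHCII+CD11c− and −1.12 ± 0.33 (adjusted p = 0.263) against MHCII+CD11c+ macrophages, so a different Plin2 response of the subsets was not shown. The MHCII+CD11c− call lay at the threshold. It was lost without control replicate 1 or 3 or IC replicate 2 or 3 (adjusted p = 0.214, 0.261, 0.196 and 0.176), while the log2 fold change kept between 0.84 and 1.09 when any library was left out. The MHCII+CD11c+ call was lost without control replicate 1 or 3 (adjusted p = 0.146 and 0.206, log2 fold changes of 1.17 and 1.10). Leaving out an IC replicate of this subset leaves a single library, which is then assumed to vary like the other groups, and the log2 fold changes were 1.24 and 1.20 (adjusted p = 0.302 and 0.206). Marker sums also differed between these libraries, both of the subset's own markers and of markers of other cells. The 5 MHCII-side markers summed to 18209 to 19935 CPM in MHCII+CD11c− controls and 12161 to 13812 CPM after IC, all 5 above 3 counts. The LYVE1-side markers of this subset summed to 1021, 1903 and 1146 CPM in controls and 3367, 1844 and 2854 CPM after IC, with overlap. In MHCII+CD11c+ macrophages 7 neutrophil markers summed to 77.1 to 273 CPM in controls and 25.7 to 29.7 CPM after IC, with 7 and 3 of them above 3 counts in a library. Endothelial markers (5 of 7 in both groups) gave 3.03 to 15.0 and 29.1 to 29.7 CPM, adipocyte markers (3 and 6 of 10) 19.5 to 31.0 and 33.5 to 36.3 CPM, and skeletal muscle markers 9.83 to 11.9 and 8.25 to 9.40 CPM. Apart from the LYVE1-side sums, these sums did not overlap, and the part of any of them in the Plin2 values was not tested. The mean of the IC effects over the 3 subsets was 0.75 ± 0.13 for Plin2 (adjusted p = 0.0016), and this call held in all 28 alternative analyses.

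**Figure D1:**
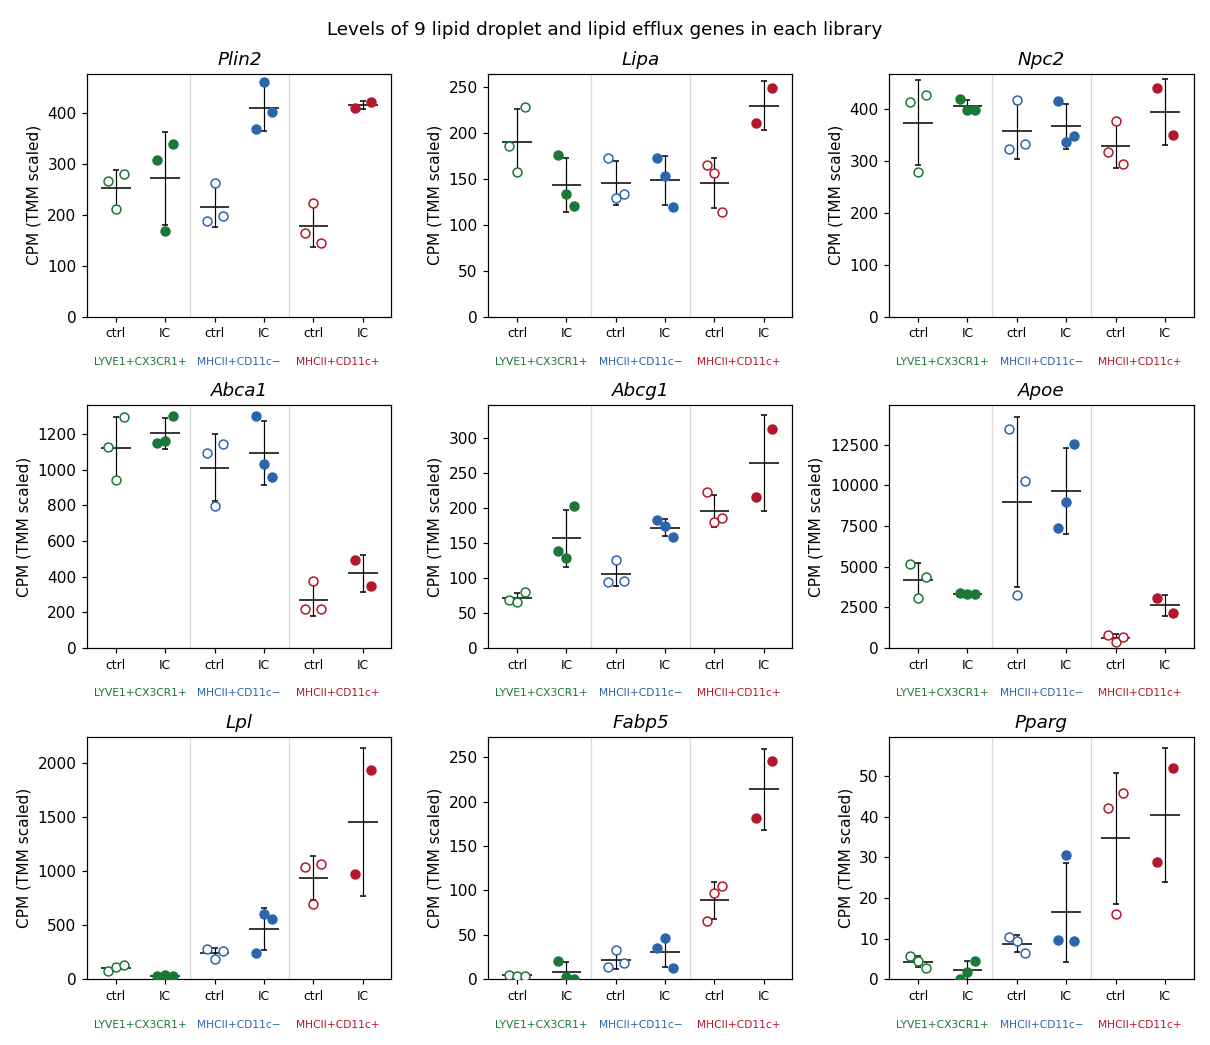
Level of each of the 9 genes in each library, in CPM (vertical axes, from 0), for control (open) and IC (filled) libraries of the 3 subsets; the bar is the mean and the whisker 1 SD (n = 3, or n = 2 for MHCII+CD11c+ after IC). After IC, Plin2 was above all control libraries in both MHCII+ subsets and Abcg1 in LYVE1+CX3CR1+ and MHCII+CD11c− macrophages. Apoe, Fabp5 and Lipa were above them in MHCII+CD11c+ macrophages, and Lpl was below them in LYVE1+CX3CR1+ macrophages. Of all genes tested, 21.8% (LYVE1+CX3CR1+), 17.2% (MHCII+CD11c−) and 23.1% (MHCII+CD11c+) had no overlap of IC and control libraries.

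IC raised Abcg1 in LYVE1+CX3CR1+ macrophages and left Abca1 near its control level. Abcg1 (plus strand of chromosome 17, 31057675 to 31117988) had 67.9, 64.9 and 80.0 CPM in LYVE1+CX3CR1+ controls and 138, 128 and 202 CPM after IC. All IC libraries were above all control libraries, and the mean was 2.20-fold higher. The LYVE1-side markers of these libraries were also higher after IC, with 5904 to 7015 CPM against 3847 to 4735 CPM in controls, and their part in the Abcg1 values was not tested. Abcg1 of MHCII+CD11c− macrophages was at 94.5, 125 and 96.0 CPM in controls and 183, 173 and 158 CPM after IC, again without overlap. In MHCII+CD11c+ macrophages the libraries overlapped, with 222, 179 and 185 CPM in controls and 216 and 313 CPM after IC. The log2 fold change was 1.14 ± 0.20 in LYVE1+CX3CR1+ macrophages (adjusted p = 0.00671) and was not called in MHCII+CD11c− (0.70 ± 0.20, adjusted p = 0.123) or MHCII+CD11c+ macrophages (0.43 ± 0.22, adjusted p = 1). Without replicate 2 of both MHCII+ control groups, Abcg1 was also called in MHCII+CD11c− macrophages (0.84, adjusted p = 0.0479). The mean IC effect over the subsets was 0.76 ± 0.12 (adjusted p = 0.000606), a call that held in all 28 alternatives, and the IC responses of the subsets were not shown to differ (adjusted p = 0.785 and 0.55 for LYVE1+CX3CR1+ against MHCII+CD11c− and MHCII+CD11c+).

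Abca1 (minus strand of chromosome 4, 53030787 to 53159895) had 1125, 939.7 and 1295 CPM in LYVE1+CX3CR1+ controls and 1148, 1159 and 1305 CPM after IC. MHCII+CD11c− macrophages had 1095, 799 and 1144 CPM in controls and 1299, 1029.7 and 959 CPM after IC. In MHCII+CD11c+ macrophages it had 217, 377 and 220.1 CPM in controls and 492 and 346 CPM after IC. In each subset the control and IC libraries overlapped, and log2 fold changes of 0.10 ± 0.21, 0.11 ± 0.21 and 0.63 ± 0.23 were not called (adjusted p = 0.894, 0.944 and 0.719). That the last of these was not called depended on control replicate 2, the highest of the MHCII+CD11c+ controls. Without it the log2 fold change was 0.94 (adjusted p = 0.0368).

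The 2 transporters were ordered oppositely over the control subsets, Abca1 high in LYVE1+CX3CR1+ and MHCII+CD11c− macrophages and Abcg1 high in MHCII+CD11c+ macrophages. Abca1 of LYVE1+CX3CR1+ controls was 4.13-fold that of MHCII+CD11c+ controls (log2 fold change 2.04 ± 0.22, adjusted p = 3.3e-07) and MHCII+CD11c+ controls had 3.73-fold less of it than MHCII+CD11c− controls (−1.90 ± 0.21, adjusted p = 3e-06). Abcg1 of LYVE1+CX3CR1+ controls was 2.76-fold below that of MHCII+CD11c+ controls (−1.46 ± 0.20, adjusted p = 1.7e-05) and MHCII+CD11c+ controls had 1.86-fold more of it than MHCII+CD11c− controls (0.89 ± 0.20, adjusted p = 0.00536). Between LYVE1+CX3CR1+ and MHCII+CD11c− controls neither differed by the test (0.15 ± 0.21 and −0.57 ± 0.20, adjusted p = 0.96 and 0.216). Per kilobase of exon, Abca1 and Abcg1 levels were 108 and 9.71 CPM in LYVE1+CX3CR1+ controls and 26.2 and 26.8 CPM in MHCII+CD11c+ controls. The ratio of Abca1 to Abcg1 counts in a library was 15.8 ± 1.11 in LYVE1+CX3CR1+ controls and 7.93 ± 1.33 after IC, 9.96 ± 3.12 and 6.37 ± 0.64 in MHCII+CD11c− macrophages (mean ± SD, n = 3 each), and 1.42 ± 0.60 (n = 3) and 1.69 ± 0.83 (n = 2) in MHCII+CD11c+ macrophages. The ratio ranged from 14.5 to 16.6 in LYVE1+CX3CR1+ controls and from 6.44 to 9.03 after IC, so these groups did not overlap. It was not tested apart from the fit of each gene.

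**Figure D2:**
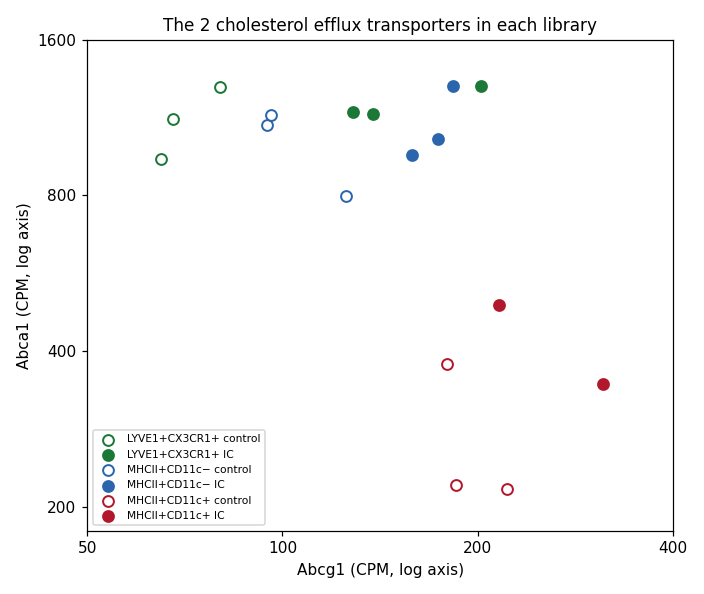
Abca1 against Abcg1 in each of the 17 libraries, in CPM on log axes; open points are control and filled points IC libraries, coloured by subset. LYVE1+CX3CR1+ libraries lay at similar Abca1 levels and moved from at most 80.0 CPM of Abcg1 in controls to at least 128 CPM after IC, and MHCII+CD11c+ libraries had less Abca1 than every other library.

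Apoe had the highest level per kilobase of exon of the 9 genes in each control subset, with 1959, 4206 and 288 CPM per kilobase in LYVE1+CX3CR1+ controls, MHCII+CD11c− controls and MHCII+CD11c+ controls. Of the 6 groups, its libraries varied most in MHCII+CD11c− controls. Apoe (minus strand of chromosome 7, 19696109 to 19699188) had 13470.0, 3235 and 10270.0 CPM in these controls and 7378, 9007 and 12572 CPM after IC. The low control library was replicate 2, which stood apart in its LYVE1-side markers. In LYVE1+CX3CR1+ macrophages Apoe had 5160.0, 3054 and 4353 CPM in controls and 3401, 3312 and 3308 CPM after IC, and in these subsets the libraries overlapped. In MHCII+CD11c+ macrophages it had 810.4, 362 and 674 CPM in controls and 3058 and 2166 CPM after IC, without overlap. Mean Apoe of MHCII+CD11c+ macrophages was thus 4.24-fold higher after IC, but the log2 fold change of 2.09 ± 0.49 was not called (adjusted p = 0.226). It was called by DESeq2 (adjusted p = 0.00116), by voom with sample weights (adjusted p = 0.0297) and without replicate 2 of both MHCII+ control groups (1.81, adjusted p = 0.000236), and its adjusted p reached 1 in other alternatives. The LYVE1-side markers of the same libraries summed to 100.2, 632 and 64.3 CPM in controls and 574 and 281 CPM after IC, with overlap. The control with the highest sum, replicate 2, had the least Apoe, and the IC library with the higher sum had the more Apoe. The part of these cells in the Apoe values was not tested. Cells carried over from another subset and RNA of the sorted cells themselves cannot be told apart in bulk libraries, and neither can fewer cells of a type and less RNA per cell. Of the control subsets, MHCII+CD11c+ macrophages had 14.6-fold less Apoe than MHCII+CD11c− macrophages (−3.87 ± 0.50, adjusted p = 0.000398) and LYVE1+CX3CR1+ macrophages 6.81-fold more than MHCII+CD11c+ macrophages (2.77 ± 0.47, adjusted p = 0.00154). LYVE1+CX3CR1+ and MHCII+CD11c− controls did not differ by the test (−1.10 ± 0.45, adjusted p = 0.393), and did without replicate 2 of the MHCII+CD11c− controls (−1.50, adjusted p = 0.013).

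Lpl was highest in MHCII+CD11c+ controls, where Abca1 was lowest, and fell after IC in LYVE1+CX3CR1+ macrophages. Lpl (plus strand of chromosome 8, 68880491 to 68907448) had 73.4, 112 and 133 CPM in LYVE1+CX3CR1+ controls and 29.3, 35.9 and 25.7 CPM after IC. The mean was 3.51-fold lower, every IC library was below every control library, and the log2 fold change was −1.81 ± 0.35 (adjusted p = 0.0252). Lpl of MHCII+CD11c− macrophages was at 275, 190.5 and 258 CPM in controls and 243, 602 and 558 CPM after IC, and in MHCII+CD11c+ macrophages 1043, 698 and 1069 CPM in controls and 973 and 1939 CPM after IC. The libraries overlapped in both MHCII+ subsets, and log2 fold changes of 0.95 ± 0.33 and 0.64 ± 0.36 were not called (adjusted p = 0.289 and 1). Lpl thus had opposite signs in LYVE1+CX3CR1+ and MHCII+ macrophages, and the differences of the IC responses were −2.76 ± 0.48 and −2.44 ± 0.50 against MHCII+CD11c− and MHCII+CD11c+, neither called (adjusted p = 0.0869 and 0.135). DESeq2 called both (adjusted p = 0.000379 and 0.00616). Without replicate 1 of the MHCII+CD11c− IC libraries, the one within the control range, the first was called as well (−3.02, adjusted p = 0.00183), as was the rise within that subset (1.26, adjusted p = 0.0316).

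The fall of Lpl in LYVE1+CX3CR1+ macrophages lost its call without control replicate 2 or 3 or IC replicate 1 or 3 (adjusted p = 0.0801, 0.113, 0.077 and 0.117), with log2 fold changes between −1.98 and −1.57 over all left-out libraries. The 5 MHCII-side markers, genes of cells that carry more Lpl, summed to 299, 673 and 418 CPM in LYVE1+CX3CR1+ controls and 119, 83.1 and 66.4 CPM after IC, and 5 and 4 of them passed 3 counts in a library of these groups. Skeletal muscle, another tissue with Lpl, gave 10.9, 26.8 and 17.2 CPM summed over 7 markers in these controls and 2.34, 3.78 and 0 CPM after IC, with 6 and 2 of the markers above 3 counts in a library. The part of these cells in the Lpl values was not tested. Of 10 adipocyte markers, 3 passed 3 counts in a library of either group, and their sum was 21.6 to 25.7 CPM in controls and 28.4 to 36.5 CPM after IC, most of it from Lipe. The defining adipocyte gene Adipoq had 0.18 ± 0.16 CPM in LYVE1+CX3CR1+ controls and was listed at 0 in all 3 IC libraries.

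**Figure D3:**
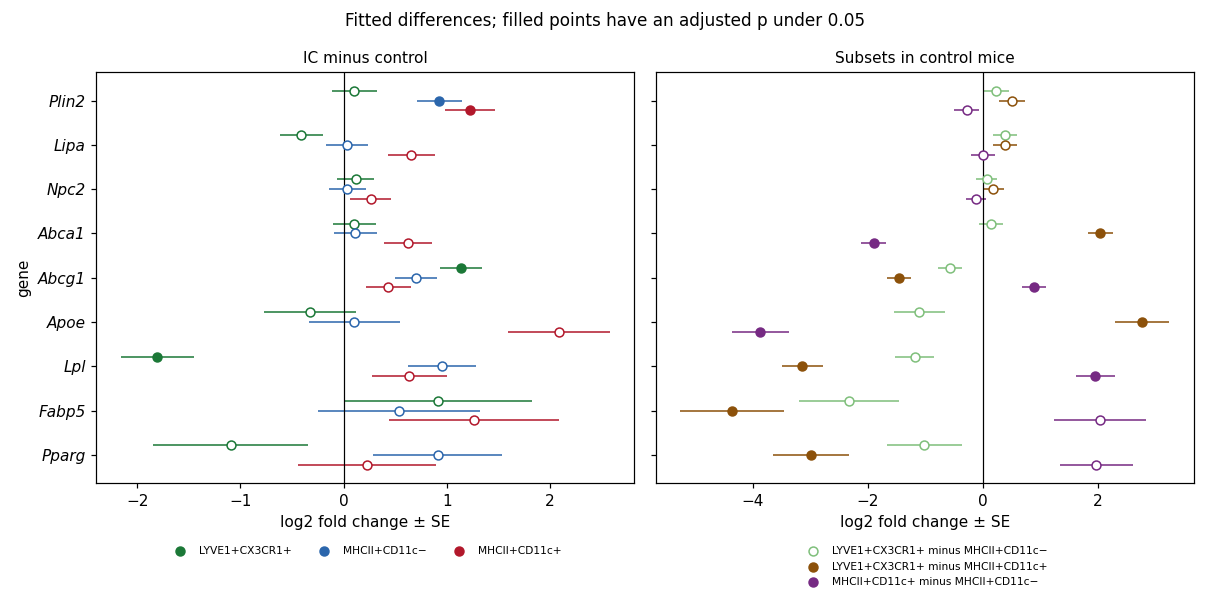
Fitted log2 fold changes ± SE of the 9 genes (horizontal axes), for IC against control in each subset (left) and for pairs of subsets in control mice (right); filled points were called at an adjusted p under 0.05. The called IC effects are those of Plin2 in both MHCII+ subsets, of Abcg1 (1.14) and of Lpl (−1.81) in LYVE1+CX3CR1+ macrophages.

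Among controls, LYVE1+CX3CR1+ macrophages had 8.82-fold less Lpl than MHCII+CD11c+ macrophages (−3.14 ± 0.36, adjusted p = 1.6e-05) and MHCII+CD11c+ macrophages 3.88-fold more than MHCII+CD11c− macrophages (1.96 ± 0.34, adjusted p = 0.00164). LYVE1+CX3CR1+ libraries lay below MHCII+CD11c− libraries without overlap, but the difference was not called (−1.18 ± 0.34, adjusted p = 0.115). After IC the same differences were −5.58 ± 0.42 (adjusted p = 4.4e-07), 1.64 ± 0.36 (adjusted p = 0.0164) and −3.94 ± 0.38 (adjusted p = 1.9e-05). After IC, mean Lpl of LYVE1+CX3CR1+ macrophages was 48.1-fold below that of MHCII+CD11c+ macrophages.

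Fabp5 and Pparg shared the order of Lpl in their group means and were low in LYVE1+CX3CR1+ macrophages. Fabp5 (plus strand of chromosome 3, 10012548 to 10016607) had 5.20, 4.05 and 3.63 CPM in LYVE1+CX3CR1+, 13.2, 33.0 and 18.1 CPM in MHCII+CD11c− and 65.1, 96.6 and 105 CPM in MHCII+CD11c+ controls. After IC it had 20.8, 2.52 and 0, then 34.8, 46.6 and 12.1, and then 181 and 246 CPM. The 0 stands for no count in a library in which 3 counts are 1.24 CPM. LYVE1+CX3CR1+ libraries after IC ranged from below to above all control libraries of that subset. Both MHCII+CD11c+ IC libraries were above their controls, 2.40-fold in the mean. None of the IC effects was called (log2 fold changes of 0.92 ± 0.92, 0.54 ± 0.78 and 1.27 ± 0.82, adjusted p = 0.735, 0.93 and 1), although voom called the last (adjusted p = 0.0197). LYVE1+CX3CR1+ controls had 20.7-fold less Fabp5 than MHCII+CD11c+ controls (−4.36 ± 0.90, adjusted p = 0.00551). MHCII+CD11c− controls lay between them, without overlap on either side, 4.99-fold above LYVE1+CX3CR1+ and 4.15-fold below MHCII+CD11c+ controls in the mean. Neither of these differences was called (adjusted p = 0.325 and 0.155). Both were called with surrogate variables (adjusted p = 0.0119 and 0.043), with voom (adjusted p = 0.0268 and 0.00336) and with the groups of the contrast alone (adjusted p = 0.00825 and 0.00672).

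Pparg (plus strand of chromosome 6, 115360951 to 115490399) had 5.67, 4.59 and 2.79 CPM in LYVE1+CX3CR1+, 10.5, 9.37 and 6.35 CPM in MHCII+CD11c− and 42.1, 16.2 and 45.8 CPM in MHCII+CD11c+ controls. After IC it had 0, 1.89 and 4.56 CPM, 9.53, 30.5 and 9.36 CPM, and 28.8 and 52.0 CPM. The LYVE1+CX3CR1+ values after IC rest on 0, 6 and 11 counts. The lowest MHCII+CD11c+ control was replicate 2, which stood apart. Of the MHCII+CD11c− IC libraries, only replicate 2 lay above the controls of that subset. IC and control libraries overlapped in every subset, with log2 fold changes of −1.10 ± 0.75, 0.91 ± 0.63 and 0.23 ± 0.67 (adjusted p = 0.559, 0.728 and 1). LYVE1+CX3CR1+ controls had 7.97-fold less Pparg than MHCII+CD11c+ controls (−2.99 ± 0.67, adjusted p = 0.00286). They lay below MHCII+CD11c− controls without overlap, but that difference was not called (−1.02 ± 0.65, adjusted p = 0.722). MHCII+CD11c+ against MHCII+CD11c− controls missed the threshold (1.97 ± 0.64, adjusted p = 0.0573) and passed it without replicate 2 of the MHCII+CD11c+ controls (2.32, adjusted p = 0.023). After IC, LYVE1+CX3CR1+ macrophages had less Pparg than MHCII+CD11c− (−3.02 ± 0.74, adjusted p = 0.0157) and MHCII+CD11c+ macrophages (−4.31 ± 0.78, adjusted p = 0.000648). The first of these was lost without MHCII+CD11c− IC replicate 2 (adjusted p = 0.121) or LYVE1+CX3CR1+ IC replicate 2 (adjusted p = 0.0642). An antisense gene, Gm44079, overlaps Pparg, and whether reads were counted by strand is not stated, so reads of the pair may be mixed.

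Lipa and Npc2, the lysosomal members, were the most even over the 6 groups. Lipa (minus strand of chromosome 19, 34492318 to 34527474) ranged from 114 to 249 CPM over the 17 libraries, and Npc2 (minus strand of chromosome 12, 84754562 to 84773152) from 279 to 440.0 CPM. The highest group mean was 1.61-fold the lowest for Lipa and 1.23-fold for Npc2. Both MHCII+CD11c+ IC libraries, with 210.4 and 249 CPM of Lipa, were above the controls of 165, 156 and 114 CPM, and the log2 fold change of 0.66 ± 0.23 was not called (adjusted p = 0.609). IC effects on Npc2 were between 0.04 ± 0.18 and 0.26 ± 0.20. Neither gene was called in any of the 13 comparisons. Lipa came nearest after IC, where LYVE1+CX3CR1+ libraries lay below MHCII+CD11c+ libraries without overlap (−0.68 ± 0.23, adjusted p = 0.053). MHCII+CD11c+ libraries after IC also lay above MHCII+CD11c− libraries without overlap (0.63 ± 0.23, adjusted p = 0.148).

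Over the 9 genes, IC changed 2 in LYVE1+CX3CR1+ macrophages (Abcg1 higher, Lpl lower), where 0.963% of all genes tested were called, 0.151% higher and 0.812% lower. In MHCII+CD11c− and MHCII+CD11c+ macrophages it changed 1 each, Plin2, where 0.701% and 0.216% of genes were called. On average over the subsets it changed 2, where 3.35% were called. Median log2 fold changes of the 9 genes were 0.10, 0.54 and 0.64 in the 3 subsets in this order, against −0.137, −0.03 and 0.015 over all genes tested. The libraries of IC and control mice did not overlap for 2, 2 and 4 of the 9 genes, while they did not overlap for 21.8%, 17.2% and 23.1% of all genes. No member was called in the 3 differences of IC responses by edgeR, where 0.0262%, 0.0327% and 0% of genes were called. At an unadjusted p under 0.05 there were 2 (Lpl, Plin2) for LYVE1+CX3CR1+ against MHCII+CD11c−, 5 (Lpl, Lipa, Plin2, Apoe, Abcg1) for LYVE1+CX3CR1+ against MHCII+CD11c+ and 1 (Apoe) for MHCII+CD11c+ against MHCII+CD11c− macrophages, where 7.54%, 8.02% and 3.25% of all genes were, and DESeq2 called 1, 2 and 0.

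More members were called in control comparisons with MHCII+CD11c+ macrophages than for IC, and more of all genes were called there as well. Between LYVE1+CX3CR1+ and MHCII+CD11c+ controls 6 of 9 were called, where 15.2% of genes were: Abca1 and Apoe were higher, and Abcg1, Lpl, Fabp5 and Pparg lower in LYVE1+CX3CR1+ macrophages. Between MHCII+CD11c+ and MHCII+CD11c− controls 4 of 9 were called (Lpl and Abcg1 higher, Abca1 and Apoe lower), where 8.66% of genes were. Between LYVE1+CX3CR1+ and MHCII+CD11c− controls edgeR called 0 of 9, where 1.56% of genes were called, with 4 at an unadjusted p under 0.05 (Lpl, Abcg1, Fabp5 and Apoe, all lower), where 10.2% of all genes were, and 2 by DESeq2 and 2 by voom. After IC the counts were 5, 2 and 2, where 11.9%, 4.03% and 5.54% of genes were called, for LYVE1+CX3CR1+ against MHCII+CD11c+, MHCII+CD11c+ against MHCII+CD11c− and LYVE1+CX3CR1+ against MHCII+CD11c−. Libraries of the compared subsets did not overlap, in the same order, for 6, 6 and 4 of the 9 genes in controls, where they did not for 37.8%, 27.4% and 21.9% of all genes, and for 8, 6 and 4 after IC, where they did not for 40.9%, 36.6% and 21.9%. Abca1, Lpl, Abcg1, Fabp5 and Pparg were called in LYVE1+CX3CR1+ against MHCII+CD11c+ macrophages with the same signs as in controls, and Apoe was not (0.36 ± 0.50, adjusted p = 0.722). Without IC replicate 2 of MHCII+CD11c+ macrophages, the counts of 5 and 2 against MHCII+CD11c+ macrophages were 3 and 0, with a single library left in that group and its spread taken from the other groups. The Abcg1 difference after IC (−0.76 ± 0.22, adjusted p = 0.0256) was lost without LYVE1+CX3CR1+ IC replicate 1 or 2 or MHCII+CD11c+ IC replicate 2 (adjusted p = 0.0863, 0.0916 and 0.489). Comparisons of subsets share libraries, since each subset enters 2 of them.

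Few genes were called for IC in a given subset in the whole table, so calls of 0 in lists of this size say little about them, and shares at an unadjusted p under 0.05 are given as well. Over all genes tested, that share was 14.1% (LYVE1+CX3CR1+), 9.99% (MHCII+CD11c−) and 5.21% (MHCII+CD11c+), and it was 17.7% for the mean over the subsets. Of 17 tested genes of droplet coats and droplet lipases, edgeR called 0 in each subset, with 4 (LYVE1+CX3CR1+), 2 (MHCII+CD11c−) and 4 (MHCII+CD11c+) at an unadjusted p under 0.05. On average over the subsets 1 of 17 was called, Nceh1, a cholesteryl ester hydrolase, which rose (0.56 ± 0.14, adjusted p = 0.0284), where 3.35% of all genes were called. At an unadjusted p under 0.05 there were 9 of 17 on average, 5 higher and 4 lower. Median log2 fold changes of this list were 0.015, −0.01 and 0.155 in the 3 subsets. Plin3, another droplet coat gene, had 35.0 ± 5.25 CPM in LYVE1+CX3CR1+ macrophages after IC and 37.3 ± 4.73 CPM in controls (n = 3 each). The remaining perilipins, Plin1, Plin4 and Plin5, had group means of at most 15.4 CPM.

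Of 17 tested genes of fatty acid and lipoprotein uptake, edgeR called 0 in each of the MHCII+ subsets, with 3 (MHCII+CD11c−) and 1 (MHCII+CD11c+) at an unadjusted p under 0.05. On average over the subsets 1 of 17 was called higher and 1 lower, where 3.35% of all genes were called, with 4 at an unadjusted p under 0.05. Higher was Acsl5, which activates fatty acids (0.47 ± 0.13, adjusted p = 0.0417). Of 12 tested LXR genes (receptors, partners and targets other than the members), edgeR called 0 in every subset and 0 on average, with 1, 3, 1 and 2 at an unadjusted p under 0.05. Nr1h3, which encodes LXRα, had 7.81 ± 6.33 and 28.3 ± 6.66 CPM in MHCII+CD11c− controls and IC libraries, and 5.63 ± 4.88 (n = 3) and 26.7 ± 0.92 CPM (n = 2) in MHCII+CD11c+ macrophages, and was not called in either subset. Of 15 tested PPAR genes, 1 rose in LYVE1+CX3CR1+ and in MHCII+CD11c− macrophages, Ucp2, a mitochondrial carrier (1.17 ± 0.15 and 0.96 ± 0.15, adjusted p = 0.00016 and 0.0011). In these subsets 0.963% and 0.701% of all genes were called, and 4 and 2 PPAR genes had an unadjusted p under 0.05. In MHCII+CD11c+ macrophages edgeR called 0 PPAR genes, with 2 at an unadjusted p under 0.05. Of 18 tested lysosomal lipid genes edgeR called 0 in each subset (1, 3 and 2 at an unadjusted p under 0.05). On average 1 of 18 was called, Lamp1, a lysosomal membrane protein gene, which rose (0.34 ± 0.09, adjusted p = 0.0363). With 3 of 18 at an unadjusted p under 0.05, where 17.7% of all genes were, this list was near the share over all genes.

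Between control subsets the lysosomal lipid genes parted more than the other lists, while neither Lipa nor Npc2 was called. Of the 18 genes, 12 were higher and 2 lower in LYVE1+CX3CR1+ controls relative to MHCII+CD11c+ controls, with a median log2 fold change of 1.06 against 0.05 over all genes, where 7.83% of genes were called higher and 7.4% lower. Higher were Lamp1 (1.37 ± 0.15, adjusted p = 7.8e-07), the phospholipase gene Pla2g15 (1.76 ± 0.27, adjusted p = 6e-05) and Scarb2, which carries glucocerebrosidase to the lysosome (1.15 ± 0.18, adjusted p = 6.3e-05). Npc1, the membrane partner of Npc2, was higher as well (1.21 ± 0.24, adjusted p = 0.000757), while Npc2 itself was at 0.18 ± 0.18 (adjusted p = 0.58) and Lipa at 0.39 ± 0.21 (adjusted p = 0.246). Lower were Gm2a, the ganglioside activator (−3.05 ± 0.21, adjusted p = 7.6e-10), and Psap, the precursor of the saposins. In MHCII+CD11c+ against MHCII+CD11c− controls 1 of 18 was higher (Gm2a, 1.81 ± 0.20, adjusted p = 2.9e-06) and 7 were lower, where 3.67% and 4.99% of genes were. In LYVE1+CX3CR1+ against MHCII+CD11c− controls 1 was lower, Gm2a (−1.25 ± 0.20, adjusted p = 0.00111).

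**Figure D4:**
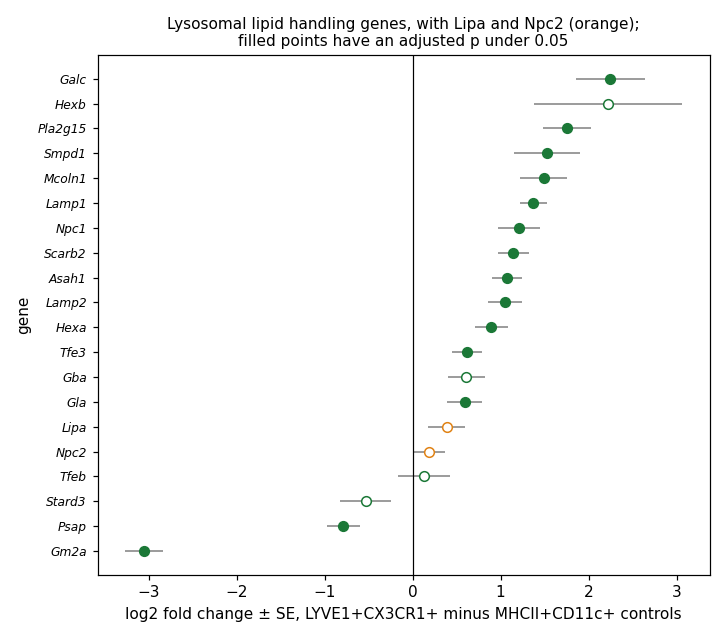
Log2 fold changes ± SE of the 18 lysosomal lipid handling genes and of Lipa and Npc2 (orange) between LYVE1+CX3CR1+ and MHCII+CD11c+ controls; filled points were called at an adjusted p under 0.05. Of the 18 genes 12 were called higher and 2 lower, and neither Lipa (0.39) nor Npc2 (0.18) was called.

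The other lists had fewer calls between control subsets. Between LYVE1+CX3CR1+ and MHCII+CD11c+ controls 15.2% of all genes were called. In the lists 4 of 12 LXR, 3 of 17 droplet, 3 of 17 uptake and 2 of 15 PPAR genes were. The droplet, uptake and PPAR counts were near the share over all genes. Of 12 LXR genes, 4 were higher and none lower in LYVE1+CX3CR1+ controls relative to MHCII+CD11c+ controls, namely Mylip, a ubiquitin ligase gene (1.73 ± 0.21, adjusted p = 2.9e-06), the phospholipid transfer protein gene Pltp (1.11 ± 0.20, adjusted p = 0.000268), Smpdl3a (1.20 ± 0.28, adjusted p = 0.00334) and Nr1h2, which encodes LXRβ (0.63 ± 0.20, adjusted p = 0.034). Abca1 and Apoe, known targets of the same receptors, were higher there too, and Abcg1, also a known target, was lower. Of 17 droplet genes, Soat1, which esterifies cholesterol, was higher (0.74 ± 0.24, adjusted p = 0.0355), and Plin3 and Hilpda, an inhibitor of droplet lipolysis, were lower (−1.29 ± 0.27 and −2.86 ± 0.71, adjusted p = 0.00126 and 0.0061). Of 17 uptake genes, Lrp1 and Fabp3 were higher (1.06 ± 0.25 and 3.89 ± 0.99, adjusted p = 0.00504 and 0.0111). Of 15 PPAR genes, Ucp2 was lower (−0.62 ± 0.14, adjusted p = 0.00367).

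Genes whose log2 CPM followed each member most closely over the 17 libraries were read from the whole table, as a description with no test. The libraries fall into 3 subsets, so a high Pearson r can arise from subset levels alone. Abca1 was closest to Serinc3 (r = 0.985), Stab1 and Agpat3, Lpl to Rab11fip1 (r = 0.971), Pabpc1 and Irf5, and Fabp5 to Dusp5 (r = 0.95), Csf2rb and Hilpda. Pparg was closest to Unc13d (r = 0.947), Me2 and Traf1, Abcg1 to Rps2 (r = 0.937), Sik1 and Ybx3, and Apoe to Hmox1 (r = 0.932), Phf20 and Ednrb. Plin2 was closest to Nbas (r = 0.875), Psen2 and Tspan3. For Npc2 and Lipa, whose levels were the most even of the 9 genes, the highest r were 0.796 (Sh3bp2) and 0.782 (E030030I06Rik). Within the 9 genes, the highest r were those of Lpl with Pparg (0.891) and Fabp5 (0.843) and of Abca1 with Apoe (0.785), and the lowest was that of Abca1 with Lpl (−0.742).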

How the data were processed

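Macrophage subsets of synovium were profiled by RNA-seq with a stranded kit for low input, from 5 ng of RNA. According to the methods and the submitters' processing notes, the authors trimmed reads with Trim Galore, checked them with FastQC, aligned them to mm10 with HISAT2 and counted them with featureCounts in Rsubread, and tested them with DESeq2 and sva. Versions, annotation and use of strand are not given in the sources used here. The deposited values are raw read counts by gene symbol, and 1 column of the table matched no sample and was not used.

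Genes with enough counts (filterByExpr, minimum count of 10) entered 1 edgeR model (version 4.0.16, R 4.3.3) of 6 group means over 17 libraries (TMM, robust quasi-likelihood F test, 11 residual degrees of freedom, biological coefficient of variation 45.1%), with 13 contrasts. The script was tested on simulated counts. A CPM is a count scaled to one common library size after TMM. Alternatives were other size factors, filters, equal depth, surrogate variables (sva 3.50.0), DESeq2 1.42.0, voom in limma 3.58.1, replicate number as a block, a gene length offset, the groups of a contrast alone, and leaving out each library. Gene coordinates (GRCm38) were taken from GENCODE M21. Named genes were the 9 members, up to 4 called genes of each pathway list in a contrast and the 3 genes most like each member. Some genes of these lists are not reported here. Perilipins, Nr1h3, Rxrb, Cyp27a1, Npc1 and Psap were added after their values were seen. The members, lists and tests were chosen with earlier results of these data known.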

Additional observations from a re-analysis of the deposited data

How the results depend on the processing

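Of 25 called differences of single members described above, 14 kept their direction and call in all alternatives, and 41 of 470 values lost the call with the direction unchanged. The fall of Lpl after IC in LYVE1+CX3CR1+ macrophages also lost its call without a filter, with surrogate variables and with voom (adjusted p = 0.0832, 0.077 and 0.317), and Plin2 lost it in MHCII+CD11c+ macrophages with surrogate variables and with the groups of the contrast alone (adjusted p = 0.0547 and 0.217). Of 42 differences that were not called, 52 of 803 values passed the threshold and 31 changed sign, none of which was called. The counts of called members, 2 on average over the subsets, and 6 and 4 for LYVE1+CX3CR1+ against MHCII+CD11c+ and MHCII+CD11c+ against MHCII+CD11c− controls, stayed within 1.5 times under every alternative.

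The count of 2 for IC in LYVE1+CX3CR1+ macrophages was 1 without a filter and 0 with voom. The count of 1 in MHCII+CD11c− macrophages was 0 with relative log expression or upper quartile factors, a minimum count of 30, the length offset or the groups of the contrast alone, and 2 without replicate 2 of both MHCII+ control groups. The count of 1 in MHCII+CD11c+ macrophages was 0 with surrogate variables or its groups alone, 2 with DESeq2, and 3 with voom and without those replicates. The count of 0 between LYVE1+CX3CR1+ and MHCII+CD11c− controls was 2 with DESeq2, voom or its groups alone and 1 with surrogate variables and without those replicates. After IC the count of 2 was 1 with voom for LYVE1+CX3CR1+ against MHCII+CD11c−, and for MHCII+CD11c+ against MHCII+CD11c− it was 1 without a filter, 4 with surrogate variables and 6 with voom. The count of 0 for different IC responses of LYVE1+CX3CR1+ and MHCII+CD11c− macrophages was 1 with the length offset, DESeq2 or the groups alone, for LYVE1+CX3CR1+ and MHCII+CD11c+ it was 2 with DESeq2 or the groups alone and 1 without those replicates, and for MHCII+CD11c+ and MHCII+CD11c− it was 1 without those replicates. The cause of these changes was not tested.

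Whether replicate numbers pair the libraries of a treatment was not settled, and the main fit used no pairing. Correlations of same-numbered deviations ranged from −0.153 to 0.286 and exceeded 0.1 throughout in 0 of 10 pairs of groups with 3 libraries. In 1 of 10, the MHCII+ controls, each library correlated best with its own number. For LYVE1+CX3CR1+ against MHCII+CD11c+ controls 5 of 6 libraries did so, and 3 of 6 against MHCII+CD11c− controls. After IC, 5 of 6 did so for LYVE1+CX3CR1+ against MHCII+CD11c−. Between a control and an IC group at most 3 of 6 did so. With the replicate block the count of 1 for IC in MHCII+CD11c− macrophages was 0. With a replicate block within treatment, the count between LYVE1+CX3CR1+ and MHCII+CD11c− controls was 2 and the counts of different IC responses against LYVE1+CX3CR1+ were 1 and 2. A block within treatment cannot be made for IC effects.

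With each library left out in turn (where that leaves 1 MHCII+CD11c+ IC library, it is assumed to vary like the other groups), members called for IC numbered 1 to 2 (LYVE1+CX3CR1+), 0 to 2 (MHCII+CD11c−) and 0 to 2 (MHCII+CD11c+), and 2 to 3 on average. They numbered 0 to 1, 6 to 7 and 4 to 5 between controls, 1 to 3, 3 to 5 and 0 to 2 after IC, in the order of LYVE1+CX3CR1+ against MHCII+CD11c−, LYVE1+CX3CR1+ against MHCII+CD11c+ and MHCII+CD11c+ against MHCII+CD11c−, and 0 to 1, 0 to 0 and 0 to 0 for different IC responses. Log2 fold changes after IC with changing sign ranged in LYVE1+CX3CR1+ macrophages from −0.0362 to 0.41 (Plin2), −0.0056 to 0.27 (Abca1), −1.57 to 1.49 (Fabp5) and −0.0535 to 0.27 (Npc2), in MHCII+CD11c− macrophages from −0.0311 to 0.21 (Abca1), −0.30 to 0.52 (Apoe), −0.0922 to 0.18 (Lipa) and −0.0636 to 0.16 (Npc2), and in MHCII+CD11c+ macrophages from −0.29 to 0.58 (Pparg).

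In LYVE1+CX3CR1+ macrophages Plin2 turned to −0.10 with voom and Fabp5 to −0.62 with surrogate variables and −0.21 with voom. In MHCII+CD11c− macrophages Lipa turned to −0.0137, −0.0158 and −0.0132, and Npc2 to −0.0060, −0.0089 and −0.0063, with relative log expression factors, upper quartile factors and DESeq2, and Npc2 to −0.0696 at equal depth. Without replicate 2 of both MHCII+ control groups Abca1, Apoe and Lipa turned to −0.0357, −0.31 and −0.0518 there, and Pparg to −0.13 in MHCII+CD11c+ macrophages. The genes called in the whole table moved as well, from 147 to between 36 (voom) and 436 (DESeq2) for IC in LYVE1+CX3CR1+, from 107 to between 29 and 287 in MHCII+CD11c−, and from 33 to between 0 and 156 in MHCII+CD11c+ macrophages, which limits what 2 or 3 libraries a group can show.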
